A study of Mus musculus with 30 samples.

Results

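The intergenic CpG island (IG-CGI) of the imprinted Dlk1-Dio3 domain was examined in mouse embryonic stem cells (mESC) that carry a Dnmt1 knockout. The set consists of the 773 reads of the Dnmt1 knockout library, out of 25141 reads in the 30 libraries of the study, chosen by the library name the submitters gave. Its reference is the library of 1218 reads from wild-type mESC, and both libraries come from V6.5, a mouse embryonic stem cell line. No reporter or other allele is given for either library, and the labels do not say how the knockout was made or whether the cells are 1 clone. Each side has 1 library. Every test on reads therefore compares the libraries, not the genotypes. The study as a whole followed CpG methylation at this domain in cells, embryos, oocytes and tails of wild-type and mutant mice. Amplicon reads measure no expression, so neither the loss of Dnmt1 nor the stem cell identity could be checked here.

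Dnmt1 is the maintenance methyltransferase, the enzyme that copies methylation onto the new strand of a CpG after replication. The de novo enzymes Dnmt3a and Dnmt3b methylate without such a template, and the Tet enzymes oxidise methylcytosine. The IG-CGI belongs to the intergenic control region between Dlk1, a protein-coding gene (chromosome 12, 109452485 to 109463336 in the mm10 assembly), and Meg3, a long non-coding RNA gene also called Gtl2 (chromosome 12, 109540996 to 109571729). On the paternal chromosome this region is normally methylated, and on the maternal chromosome it is not. At such imprinted regions the parental difference has to be copied at each cell division.

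The reads were bisulfite converted, amplified and sequenced, and each call says whether a CpG of a read was methylated. Retained methylcytosine, hydroxymethylcytosine and an unconverted or misread cytosine all give a methylated call and cannot be told apart here. The amplicon holds 29 CpGs between positions 55 and 273 of its reference, and a CpG is named below by that position. The knockout library gave 21448 calls at these CpGs, from 669 to 757 per CpG, and the wild-type library 33562 calls, from 938 to 1181 per CpG. CpG 273 had the fewest calls in both. Intervals are at 95%, Wilson intervals for shares and read-clustered intervals for means. Wilson intervals over calls or pairs of calls pooled across CpGs treat those of 1 read as independent and may be too narrow. The PCR products carry no molecular identifiers and several reads can be copies of 1 molecule, so intervals, limits from a count of 0 and Fisher tests cover counting error only.

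The IG-CGI kept almost none of its methylation in the Dnmt1 knockout library. The mean level over the 29 CpGs was 1.09% (SE 0.177, interval 0.746 to 1.44) against 36.8% (SE 1.28, interval 34.2 to 39.3) in wild type, a ratio of 33.6. All 29 CpGs were lower by at least 20 percentage points at an adjusted p under 0.05 (two-sided Fisher's exact test, Benjamini-Hochberg adjustment over the CpGs), which is 100% of the CpGs tested. The weakest adjusted p among them was 4.24e-71. The ranges of the libraries did not overlap at any CpG. Knockout levels ran from 0.265% to 3.71% and wild-type levels from 33.0% to 41.4%, and the highest upper bound in the knockout, 5.31%, lay below the lowest lower bound in wild type, 30.3%.

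**Figure D1:**
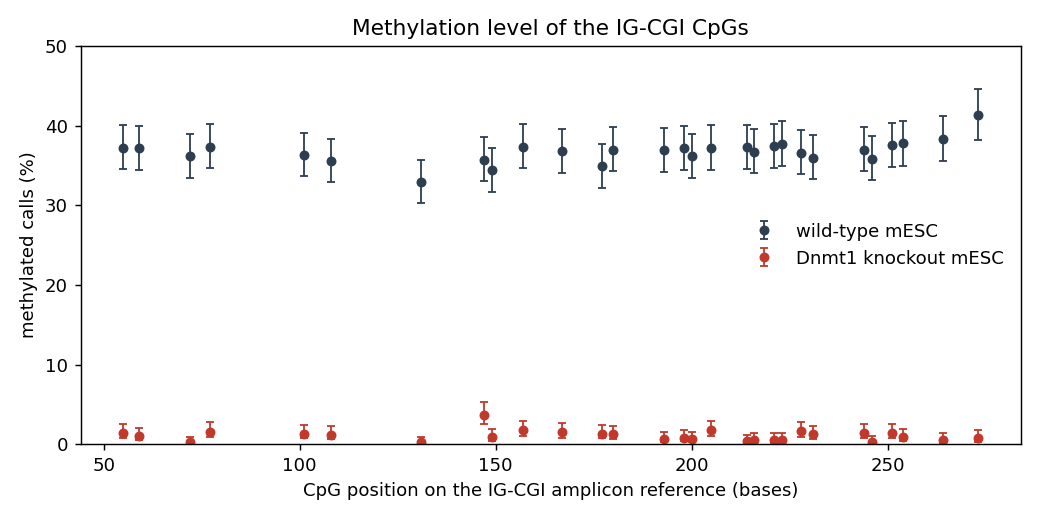
Percentage of methylated calls (vertical axis) at each of the 29 CpGs along the amplicon reference (horizontal axis, bases) in the wild-type and the Dnmt1 knockout mESC library. Bars are Wilson intervals at 95%. Wild type lies between 33.0% and 41.4% and the knockout between 0.265% and 3.71%.

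The wild-type profile was flat, and the size of the loss varied little along it. CpG 273, the last of the amplicon, had the highest wild-type level and the largest loss, from 388 of 938 calls (41.4%) to 5 of 669 (0.747%), a difference of -40.6 points. CpG 131, which lies 16 bases from its nearest neighbour, had the lowest wild-type level. It went from 385 of 1168 calls (33.0%) to 2 of 755 (0.265%). CpG 147 had the smallest difference, -32.0 points, from 421 of 1178 calls (35.7%) to 28 of 754 (3.71%). Expressed against its own wild-type level, a CpG kept from 0.737% of it at CpG 72 to 10.4% at CpG 147. The wild-type level was thus between 9.62 and 136 times the knockout level, with a median ratio of 35.0. The ratio of 136, at CpG 72, rests on 2 methylated of 751 knockout calls (interval 0.0731% to 0.966%). At such counts the ratios are imprecise, and their spread was not tested. The rank of a CpG in wild type said little about its rank in the knockout (Spearman's rho 0.0537 over 29 CpGs, which share their reads).

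The Tet triple knockout mESC library, from a line other than V6.5, carries the same sequencing order name as the Dnmt1 knockout library, while the wild-type library carries another. Order and Dnmt1 genotype are therefore confounded in the main comparison. Against the Tet library, whose mean level was 36.9%, the Dnmt1 knockout was lower by 35.8 points, and all 29 CpGs were again called lower by Fisher's exact test (100% of those tested). Within this 1 order the difference was as large as against wild type, but the Tet library also differs in cell line and Tet genotype. Dnmt1 genotype therefore cannot be isolated by this comparison either, and an effect of order was not tested.

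Almost all reads of the knockout library had few or no methylated calls, and 2 reads had many. Of the 766 reads with at least 5 calls, 601 had no methylated call, 142 had 1, 20 had 2 and 1 had 3. No read lay between 3 and 21 methylated calls. The remaining reads had 21 and 29. Reads with at least 70% of calls methylated, here called mostly methylated, made up 0.261% of knockout reads (Wilson interval 0.0716 to 0.947) and 34.5% of wild-type reads (31.9 to 37.3), a difference with a two-sided Fisher's exact p of 2.15e-100. The knockout share was 1.56% with reads of identical call string counted once and 0.131%, or 1 read, when at least 80% of calls had to be methylated, and the difference stayed past the threshold in both. Reads with between 30% and 70% of calls methylated were 64 of 1210 in wild type (5.29%, interval 4.16 to 6.70) and 0 of 766 in the knockout, which allows a share of up to 0.392%. Both the methylated and the intermediate reads of wild type were thus nearly or wholly missing from the knockout.

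**Figure D2:**
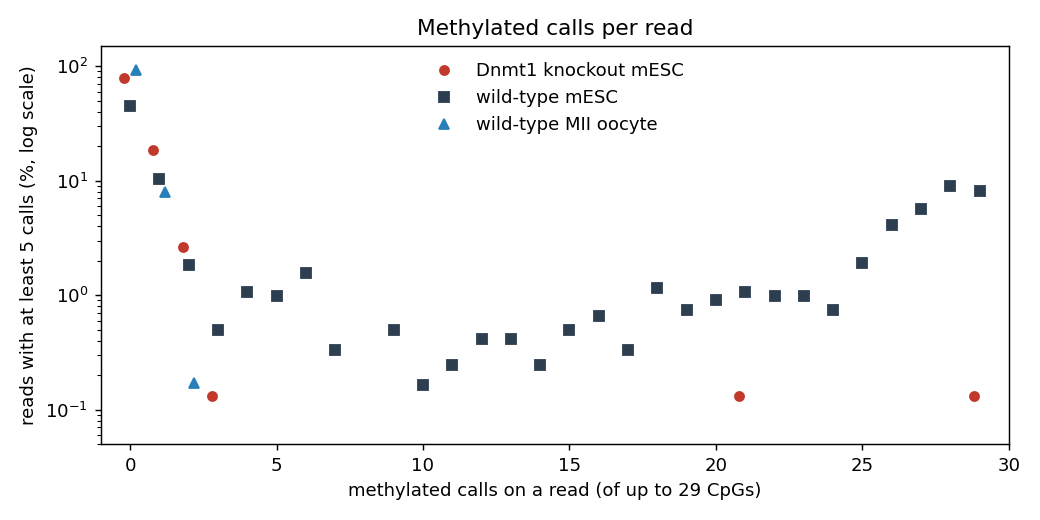
Share of reads with at least 5 calls (vertical axis, log scale) by the number of methylated calls on the read (horizontal axis) in the Dnmt1 knockout mESC, wild-type mESC and wild-type MII oocyte libraries. Counts with no read have no point. Knockout reads sit at 0 to 3 methylated calls apart from 1 read with 21 and 1 with 29, while wild-type mESC reads span the whole axis.

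The 2 mostly methylated reads of the knockout are shown here as call strings because they hold 50 of the 235 methylated calls of the library (21.3%). Each letter is 1 CpG from position 55 to position 273, with Z for methylated and z for unmethylated.
Fully methylated read: ZZZZZZZZZZZZZZZZZZZZZZZZZZZZZ
Partly methylated read: ZZZZZZZZZZZZZZZZZZZZZzzzzzzzz
The fully methylated string occurred on 99 reads of the wild-type mESC library, 44 of the Tet library and 2488 reads of 14 other libraries on this reference in all. The partly methylated string was found in none of the other 16 libraries. It is methylated through CpG 223 and unmethylated from CpG 228 on, a single switch. Reads with 1 switch and at least 5 CpGs on each side were 1 of 577 reads called at every CpG in the knockout (0.173%) and 25 of 795 in wild type (3.14%). In wild type, 7 of the 25 began methylated, and none switched after CpG 223. The source of the 2 knockout reads was not tested.

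The other methylated calls of the knockout stood alone. Outside the 2 mostly methylated reads, 185 of 21390 calls were methylated and the mean level was 0.862% (interval 0.738 to 0.987). Of these 185 calls, 181 (97.8%, interval 94.6 to 99.2) were isolated, meaning that neither neighbouring called CpG of the read was methylated, and 142 were the sole methylated call of their read. The other 4 formed 2 pairs, at CpG 157 with CpG 167 and at CpG 228 with CpG 231. Runs of 3 or more were absent from these reads. Over all reads with at least 5 calls, the isolated share was 77.0% (181 of 235 methylated calls). In wild type it was 2.10%, because 96.7% of methylated calls there lay in runs of 3 or more. The isolated share depends on the level of the reads, so 77.0% against 2.10% in part restates the difference in level. Among mostly unmethylated reads, a class defined in the next paragraph, it was 97.8% in the knockout and 44.5% in wild type (169 of 380). In the Tet library it was 60.3% (70 of 116). The mean level of these reads was still higher in wild type (1.89%) and the Tet library (1.66%) than in the knockout (0.863%).

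In these knockout reads the level of a CpG hardly depended on the call before it. The next called CpG was methylated in 2 of 181 cases after a methylated call (1.10%, interval 0.304 to 3.94) and in 174 of 20421 after an unmethylated one (0.852%, interval 0.735 to 0.988). Mostly unmethylated reads of wild-type mESC, those with at most 30% of calls methylated, behaved differently. There the next CpG was methylated in 156 of 360 cases after a methylated call (43.3%, interval 38.3 to 48.5) and in 0.960% of cases after an unmethylated one. The Tet library had 33 of 110 (interval 22.2% to 39.1%) and 1.11%. Pairs of the same read are not independent, and the 156 wild-type cases came from 52 reads. The intervals of this paragraph ignore that and may be too narrow. The background level after an unmethylated call was therefore within 0.852% to 1.11% in these 3 mESC libraries, and the level after a methylated call was low in the knockout.

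**Figure D3:**
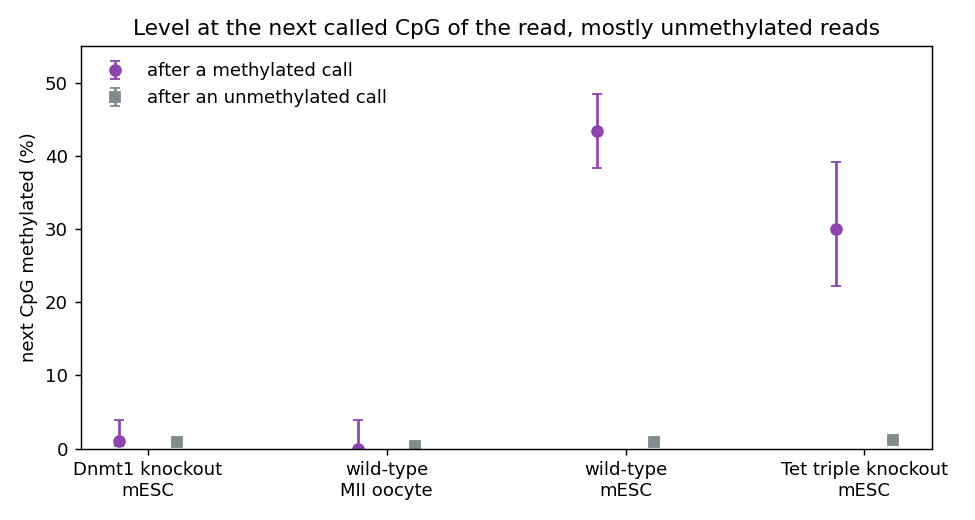
Percentage of calls that are methylated at the next called CpG of a read (vertical axis), after a methylated call (circles) or an unmethylated call (squares), in mostly unmethylated reads of 4 libraries. Bars are Wilson intervals at 95% that treat the pairs of a read as independent and may be too narrow. After a methylated call the level is 1.10% in the Dnmt1 knockout, 0 in the oocytes, 43.3% in wild-type mESC and between these in the Tet triple knockout (33 of 110).

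The same contrast appeared when reads were counted in place of calls. Among mostly unmethylated reads, a run of 2 or more methylated calls was held by 2 of 764 in the knockout (0.262%, interval 0.0718 to 0.949), 52 of 728 in wild type (7.14%, interval 5.49 to 9.25) and 13 of 249 in the Tet library (5.22%, interval 3.08 to 8.73). The wild-type MII oocyte library had 0 of 1178. These reads were classed by their own calls, so the shares are a description with no test. Runs of 3 or more were on 39 wild-type reads (5.36%) and on 0 of 764 knockout reads, which allows up to 0.393%. Mostly unmethylated reads with any methylated call were 163 of 764 in the knockout (21.3%) and 190 of 728 in wild type (26.1%), with Wilson intervals that overlap.

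Reads with exactly 2 methylated calls give the comparison at equal load. In the knockout the calls were at neighbouring CpGs on 2 of 20 such reads (interval 2.79% to 30.1%), and in wild type on 10 of 22 (interval 26.9% to 65.3%). The knockout and wild-type intervals overlap. The Tet library had 3 of 12 (interval 8.89% to 53.2%), which overlaps both, and the oocyte library 0 of 2. These classes rest on few reads and were not tested. In the knockout the 2 calls lay 3 to 150 bases apart, with a median of 93. Some pairs recurred. The 20 reads held 15 distinct pairs, 4 pairs were on more than 1 read, and CpG 77 with CpG 205 was on 3 reads. Strings of this kind are shown for the most frequent pair, for a neighbouring pair and for the 1 read with 3 methylated calls.
CpG 77 with CpG 205: zzzZzzzzzzzzzzzzZzzzzzzzzzzzz
CpG 228 with CpG 231: zzzzzzzzzzzzzzzzzzzzzZZzzzzzz
CpG 147, CpG 198 and CpG 228: zzzzzzzZzzzzzzZzzzzzzZzzzzzzz
None of these 3 strings occurred in another library on the reference. Of the 20 reads with 2 methylated calls, 6 had a string that another library also held and 14 did not. CpG 59 with CpG 177 was on 12 reads of 6 other libraries, and CpG 157 with CpG 167 on 1 wild-type mESC read. Reads with the same string may be PCR copies of 1 molecule, which was not tested.

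Residual methylation was spread over nearly all CpGs, with 1 position above the rest. Of the 29 CpGs, 14 were under 1%, 14 between 1% and 2%, and 1 above 2%. CpG 147 stood highest with 28 methylated of 754 calls (3.71%, interval 2.58 to 5.31). CpG 205 followed with 13 of 742 (1.75%, interval 1.03 to 2.97), and CpG 157 with 13 of 744 (1.75%, interval 1.02 to 2.97). The lower bound of CpG 147 lay below the upper bounds of both. At the other end CpG 131, CpG 72 and CpG 246 had 2 methylated calls each, of 755, 751 and 732 (0.265%, 0.266% and 0.273%). At CpG 131 and CpG 72 both of these came from the 2 mostly methylated reads, and no other read was methylated there.

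CpG 147 held 26 of the 185 methylated calls outside the mostly methylated reads (14.1%), and all 26 were isolated. On 23 reads it was the sole methylated call. CpG 149, only 2 bases away, had 5 of 750 calls methylated outside the mostly methylated reads (0.667%). In mostly unmethylated reads CpG 147 was at 3.46% in the knockout (interval 2.37 to 5.02), 8 of 716 calls in wild type (1.12%, interval 0.567 to 2.19) and 1 of 243 in the Tet library (0.412%, interval 0.0727 to 2.29). The Gzf1 knockout mESC library, which lacks a zinc finger protein, had 11 of 284 (3.87%, interval 2.18 to 6.80), of which 4 were isolated (1.41%), while 6 of the 8 in wild type and the 1 in the Tet library were. Over the 14 other libraries with at least 30 mostly unmethylated reads, the level at CpG 147 ranged from 0 to 15.4% with a median of 3.14%. Isolated calls alone gave 3.46% in the knockout and 0 to 15.4% in those libraries, with a median of 2.08%, and 3 of the 14 were above the knockout. CpG 147 was picked as the highest of the knockout, so its rank of 1 among the 29 CpGs there follows from that choice. In the others its rank was 10 to 29, and lower ranks there are what such a choice would give. All of these but the oocyte library had a higher mean level over the CpGs of these reads.

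The position groups had overlapping intervals. Without the 2 mostly methylated reads, the mean was 1.09% (interval 0.865 to 1.32) over the first 10 CpGs, 0.678% (0.485 to 0.871) over the next 10 and 0.813% (0.593 to 1.03) over the last 9. With CpG 147 left out, the first group came to 0.829% (0.616 to 1.04). CpGs whose nearest neighbour was at most 6 bases away had a mean of 0.877% (22 CpGs, interval 0.735 to 1.02), and more widely spaced CpGs 0.815% (7 CpGs, interval 0.563 to 1.07). The intervals thus overlapped both by local CpG spacing and by place along the amplicon. Between the first 10 and the next 10 CpGs the overlap was only from 0.865 to 0.871 when CpG 147 was kept. Overlap does not show the groups to be equal, and the differences were not tested.

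The start of the amplicon was where the knockout differed most from the mostly unmethylated reads of wild-type mESC. Over the first 5 CpGs, from CpG 55 to CpG 101, the mean in such reads was 0.881% in the knockout, 4.87% in wild type and 3.04% in the Tet library. Over the other 24 CpGs it was 0.860%, 1.27% and 1.37%. At 10 of 29 CpGs the knockout interval without the 2 mostly methylated reads lay wholly below that of the wild-type reads, among them the first 7. At CpG 147, CpG 228 and CpG 231 it lay wholly above. These classes of reads were defined by their calls, so the values are a description with no test. The level in the knockout did not follow that of the wild-type reads from CpG to CpG (Spearman's rho 0.0658 over 29 CpGs).

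**Figure D4:**
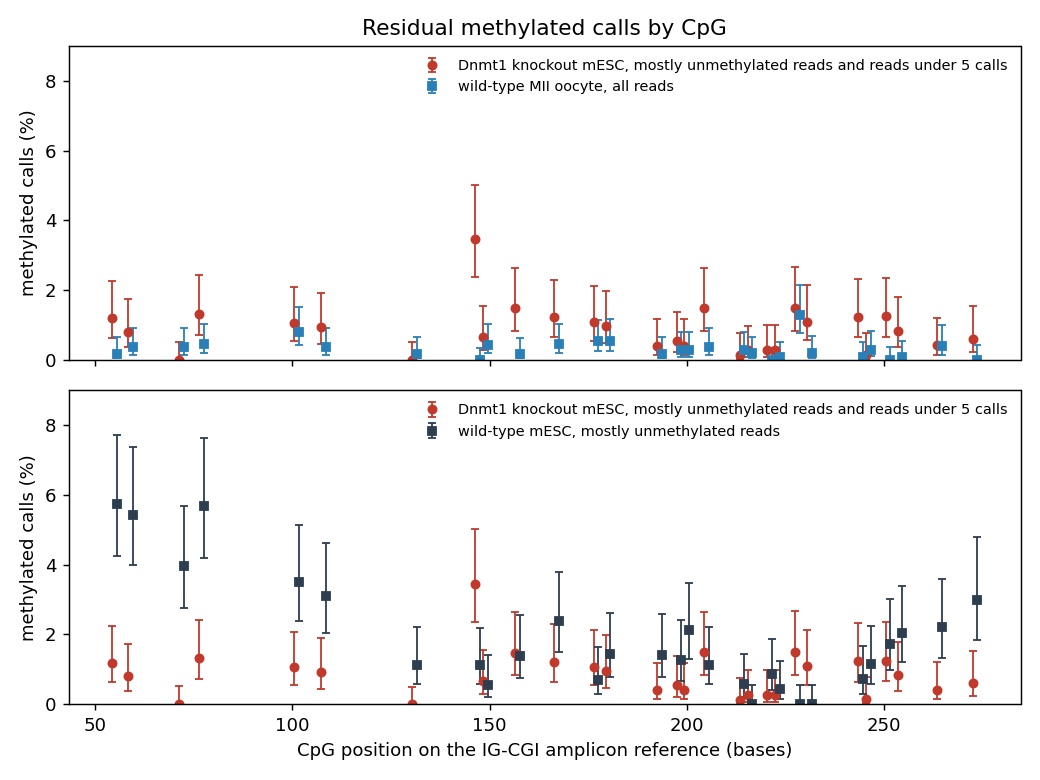
Percentage of methylated calls (vertical axis) at each CpG along the amplicon reference (horizontal axis, bases) for the Dnmt1 knockout library without its 2 mostly methylated reads, beside all reads of the wild-type MII oocyte library (upper panel) and the mostly unmethylated reads of the wild-type mESC library (lower panel). Bars are Wilson intervals at 95%. CpG 147 of the knockout is at 3.46% and at 0 in the oocytes, and the wild-type mESC reads are highest over the first CpGs, at 5.73% at CpG 55.

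The wild-type MII oocyte library, from cells that hold only the maternal copies, is the other library on this reference with hardly any methylation. Its mean level was 0.301% (SE 0.0299), from 97 methylated of 31884 calls on 1183 reads. The knockout lay 0.791 points higher (interval 0.440 to 1.14), and 0.561 points higher (interval 0.423 to 0.699) without its 2 mostly methylated reads. Tissue, genotype and sequencing order differ together between these libraries and cannot be told apart. By value 27 of 29 CpGs were higher in the knockout and 2 were lower. Fisher's exact test with Benjamini-Hochberg adjustment called 10 CpGs higher (34.5% of those tested) and none lower, and 13 had an unadjusted p under 0.05. Without the 2 mostly methylated reads, 4 CpGs were called, namely CpG 147, CpG 157, CpG 244 and CpG 251. In that setting CpG 72, CpG 131, CpG 214 and CpG 246 were lower by value than in the oocytes, and all other CpGs were higher.

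CpG 147 had the largest of these differences, with 28 of 754 calls in the knockout and 0 of 1139 in the oocytes, which allows up to 0.263% (Fisher's exact test, adjusted p = 1.37e-10). CpG 228, singled out after its values were seen, was the highest CpG of the oocyte library with 14 of 1088 calls (1.29%) and stood at 12 of 737 (1.63%) in the knockout. In mostly unmethylated reads it was at 11 of 735 in the knockout, 0 of 703 in wild-type mESC, 2 of 245 (0.816%) in the Tet library and 12 of 278 (4.32%) in Gzf1 knockout mESC. Over the 14 other libraries it ranged from 0 to 14.1% with a median of 4.37%. Isolated calls were the rule in both libraries. In the oocytes all 97 methylated calls were isolated and no read had more than 2. Reads called at every CpG and free of any methylated call were 450 of 577 in the knockout (78.0%, interval 74.4 to 81.2), 669 of 736 in the oocytes (90.9%, interval 88.6 to 92.8) and 349 of 795 in wild-type mESC (43.9%, interval 40.5 to 47.4). Calls missing inside a read, between its first and last called CpG, were 0.422% in the knockout, 0.391% in the oocytes and 0.525% in wild-type mESC. Without its 2 mostly methylated reads, the level in the knockout showed little rank correlation with that of the oocytes from CpG to CpG (Spearman's rho 0.145 over 29 CpGs).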

How the data were processed

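Per the labels' protocols, bisulfite-converted DNA went through nested PCR of the locus and Oxford Nanopore sequencing. The deposited files hold 1 letter per read and CpG, Z or z, from the original top strand. The Bismark methylation extractor 0.22.3 wrote them per the file headers, while Bismark 0.24.2 and mm10 appear in the submitters' processing notes. How reads were filtered and with which aligner settings is not given in the sources used here. Reads lie on an amplicon reference whose sequence was not used here, so CpGs have no genome coordinates, and without calls at other cytosines the conversion could not be checked. Gene coordinates are from RefSeq.

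Amplicon CpGs are positions called in 10% or more of the reads of any of the 17 libraries on the reference. Other positions held 6 calls in the knockout, none methylated. A level is the percentage of calls that are methylated, at CpGs with at least 10 calls. The mean over CpGs has a standard error that takes the read as the unit, and its interval is 1.96 standard errors each way. CpGs were compared by Fisher's exact test with Benjamini-Hochberg adjustment, on a minimum of 20 points against mESC and none against oocytes. Read classes and runs used reads with at least 5 calls. For a count of 0 the limit is 3 counts. Named CpGs are the 3 highest and 3 lowest in the knockout, and the extremes of level and difference. Reads and lists were chosen with earlier results of these data known, and the counts of reads that hold a run were added after seeing the data. The functions were tested on simulated reads. Python 3.11.15, numpy 2.4.6, pandas 2.3.3 and scipy 1.17.1 were used.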

Additional observations from a re-analysis of the deposited data

How the results depend on the processing

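No paired analysis was possible because each side has 1 library, and leaving out a replicate was likewise not possible. Of 64 alternative values, 56 kept their direction and stayed within the interval, the threshold or 1.5 times the count of the value reported, and 8 moved. All 29 CpGs were called lower under each of the 8 alternatives run for that count. These were at least 5 or 30 calls, at least 10 or 30 points, the 3 choices of reads, and the Tet library as reference. The minima of 5 and 30 calls could change no value. Every CpG had at least 669 calls in the knockout, 938 in wild type and 876 in the oocytes. The minima of 10 and 30 points could not change the count either, because the smallest difference was -32.0 points, at CpG 147. Alternatives of these kinds are among the 56 that were kept but test nothing. With reads of identical call string counted once, the mean difference was -51.4 points, the knockout level 4.34%, the isolated share 62.5%, the share of mostly methylated knockout reads 1.56% and the CpGs called against oocytes 1. By construction that count keeps 1 fully unmethylated string of 29 calls in place of 450 reads, and the knockout had 130 distinct strings among 773 reads. The isolated share was 97.8% without the 2 mostly methylated reads and 60.4% if any other methylated call on the read was counted. CpGs called against oocytes were 5 with only reads called at every CpG, which are fewer, and 4 without the 2 mostly methylated reads, an alternative added after seeing the data. The adjusted p of CpG 147 against oocytes ranged from 1.37e-10 to 0.000340 over the 6 alternatives. With CpG 147 left out, also added after seeing the data, the knockout level was 0.999%. At 669 to 757 calls per CpG, 1 methylated call is a level of over 0.1%, so CpGs under 1% rest on 2 to 7 methylated calls each.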
